A study of Mus musculus with 12 samples.

Results

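The 9 genes described here mark the medium spiny neurons of the striatum, the deep forebrain nucleus supplied by the middle cerebral artery. They were chosen by name, with earlier results of these data known. They are the dopamine receptors Drd1 and Drd2, the adenosine receptor Adora2a and the intracellular signalling genes Ppp1r1b, Rgs9, Pde10a and Pcp4. The neuropeptide precursors Penk and Tac1 complete the list. All 9 were found among the 39756 genes of the count table, and all 9 had enough counts to be among the 17558 genes tested. RNA of the ischemic hemisphere was sequenced from 12 mice of the C57BL/6J genotype, which were males of 9 to 10 weeks by the study's methods. The 4 Sham mice had sham surgery. The 4 Vehicle mice and the 4 LJP mice had transient middle cerebral artery occlusion (tMCAO) for 45 min: the vessel is closed with a filament, which is later pulled back to let blood return. LJP is a sulfated polysaccharide of the brown seaweed Laminaria japonica, dissolved in saline and given into the stomach each day for 14 days before surgery and again afterwards, while Sham and Vehicle mice received saline on the same schedule. Of the 3 doses it compared, the study went on with the middle one, and its RNA-seq methods tie neither a dose nor a collection time to the sequenced mice. Each library was made from the hemisphere, so cortex, striatum and other regions were mixed in it.

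Medium spiny neurons are the GABAergic projection neurons that make up most of the striatum. Those of the direct pathway carry the dopamine D1 receptor, which raises cyclic AMP, and make substance P from Tac1. Those of the indirect pathway carry the dopamine D2 receptor, which lowers cyclic AMP, and the adenosine A2A receptor, which raises it, and make enkephalin from Penk. Both kinds share DARPP-32, encoded by Ppp1r1b, a phosphatase inhibitor switched on by protein kinase A.

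To show one example each of a direct- and an indirect-pathway receptor gene and of a peptide gene, the 250 bases before the start site are given for Tac1, Drd1 and Drd2, from RefSeq on GRCm38.p6, 5′ to 3′ on the strand of the gene. Capitals mark matches to 2 motifs, the half-site of the cyclic AMP response element (TGACG, or CGTCA on the other strand) and the GC box (GGGCGG, or CCGCCC on the other strand). The windows are chr6:7554811-7555060 on the plus strand for Tac1, chr13:54055659-54055908 on the minus strand for Drd1 and chr9:49340153-49340402 on the plus strand for Drd2. The Drd2 start used by RefSeq lies 43 bases inside the gene start of the count table.
Tac1: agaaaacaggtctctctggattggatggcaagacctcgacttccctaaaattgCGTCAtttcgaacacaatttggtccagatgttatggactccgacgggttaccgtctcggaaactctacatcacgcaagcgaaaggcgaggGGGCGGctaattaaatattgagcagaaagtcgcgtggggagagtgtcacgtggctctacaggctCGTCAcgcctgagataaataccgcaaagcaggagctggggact
Drd1: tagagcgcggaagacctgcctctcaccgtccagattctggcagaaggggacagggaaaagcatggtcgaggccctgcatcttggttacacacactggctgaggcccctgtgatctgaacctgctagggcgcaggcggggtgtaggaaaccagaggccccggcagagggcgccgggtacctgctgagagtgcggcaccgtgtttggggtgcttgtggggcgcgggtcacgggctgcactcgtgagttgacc
Drd2: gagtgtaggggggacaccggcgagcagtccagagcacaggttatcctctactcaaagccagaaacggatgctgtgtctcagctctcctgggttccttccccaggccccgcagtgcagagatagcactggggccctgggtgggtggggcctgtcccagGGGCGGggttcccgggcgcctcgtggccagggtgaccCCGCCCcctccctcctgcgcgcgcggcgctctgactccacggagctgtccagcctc
The Tac1 window held a half-site at -197 and another at -43, counted from the start site, and a GC box at -107. Of 32851 RefSeq promoter windows, 20.8% held a half-site and 35.7% a GC box on either strand. The Drd2 window held a GC box at -93 and another at -56. The 250 bases shown for Drd1 held neither motif. A GC box followed that start at 17, and RefSeq's window around another Drd1 start site held one at -133. The shares are for windows that reach from 250 bases before the start to 50 after it. The full element TGACGTCA, present in 1.79% of promoter windows, and the AP-1 motif TGANTCA, present in 7.81%, were searched on both strands and were not found in any of the 8 windows of the 6 members with an entry. The TATA box TATAAA, present in 13.6%, was found in the window of Rgs9 alone. These matches describe letters only. Adora2a, Ppp1r1b and Penk had no entry.

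Total counts per mouse ranged from 17960353 to 22216315, so 3 counts, the limit that a count of 0 allows, corresponded to 0.129 to 0.173 CPM, in counting error only. CPM are counts scaled to a common normalised library size. All 12 mice carried a single batch label. Vehicle 2 stood apart from the other Vehicle mice. It was the lowest of the 12 mice in 9 of 9 members and in 50 of 53 further striatal genes, against 27.9% of all genes tested. It was also the lowest in 12 of 12 pan-neuronal genes and in 7 of 9 interneuron genes, but in 3 of 10 cortical excitatory genes. Over all genes, the counts of Vehicle 2 and another Vehicle mouse differed by a chi-square of 70.2 to 122 per degree of freedom, and those of Vehicle 1 and Vehicle 3 or 4 by 45.2 to 51.7. Vehicle 1 thus stood apart as well, since the value was 4.44 for Vehicle 3 and 4, 2.56 to 6.65 within the Sham group and 6.25 to 16.5 within the LJP group. Fits without Vehicle 2 and without Vehicle 1 are also given for the members, the lists and the ratios.

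All 9 medium spiny neuron genes were reduced in Vehicle mice relative to Sham mice. Their group means fell to between 15.8% (Adora2a) and 38.7% (Ppp1r1b) of the Sham mean. By edgeR's quasi-likelihood test, with p-values adjusted over all genes, 9 of 9 were called lower, where 17.3% of all genes tested were. Every Vehicle mouse lay below every Sham mouse in 9 of 9 members, against 18.8% of all genes. The median log2 fold change of the members was -1.94, and that of all genes tested was 0.00. In RNA of whole tissue, fewer medium spiny neurons and less of each RNA per neuron cannot be told apart.

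**Figure D1:**
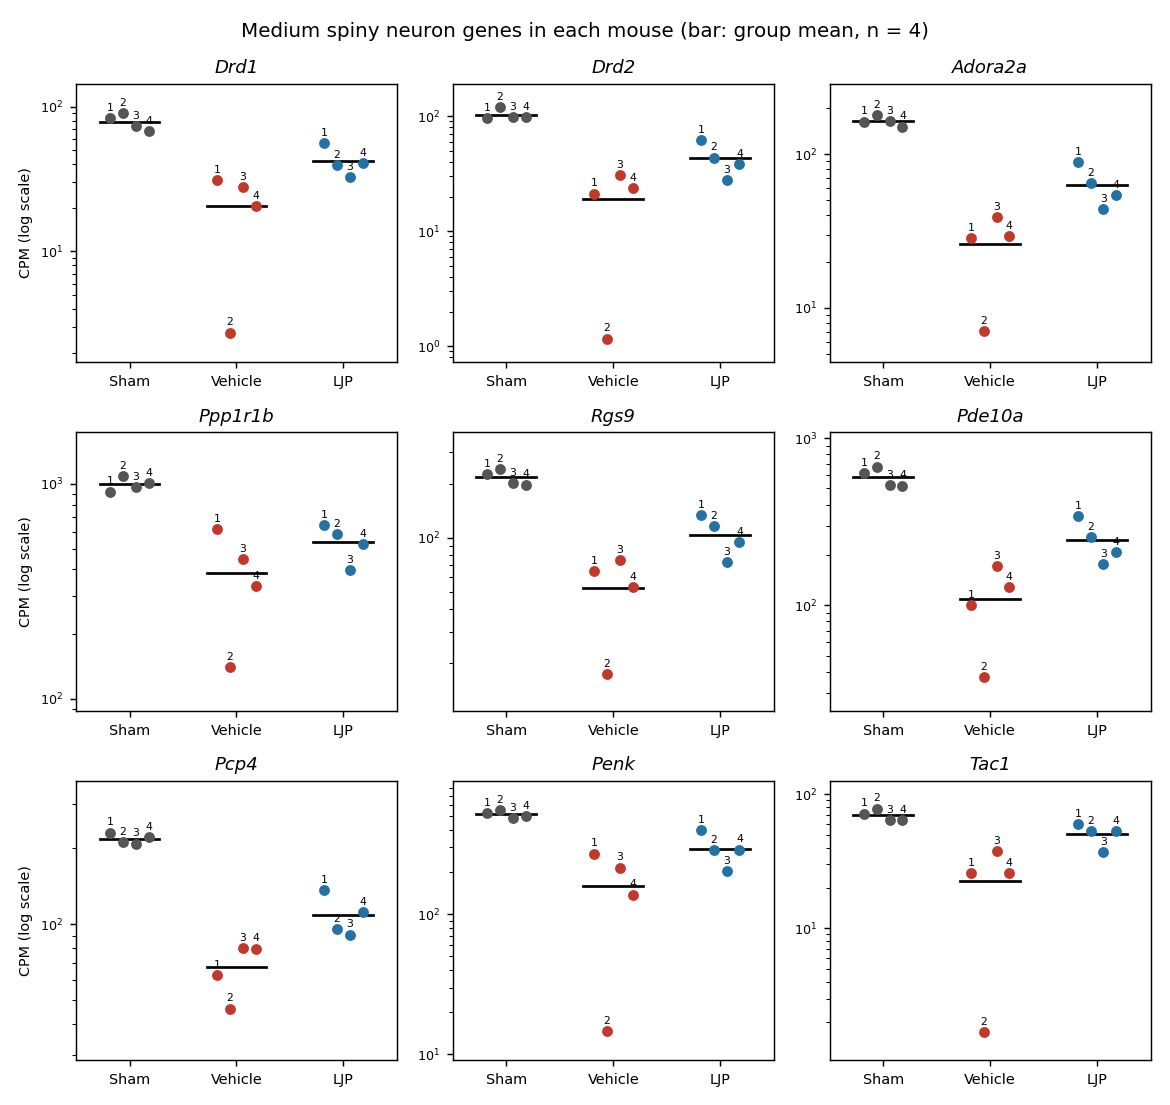
CPM of the 9 members (log axis) in each of the 12 mice, numbered by replicate within its group, with bars for the group means. No Vehicle or LJP mouse reaches the Sham range in any panel, and Vehicle 2 is the lowest mouse in all 9.

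Among the receptors, Drd1 (Entrez Gene 13488, chromosome 13 from 54051183 to 54055658) encodes the receptor that excites direct-pathway neurons. It stood at 83.4, 89.9, 72.9 and 67.3 CPM in Sham mice 1 to 4, at 31.0, 2.75, 27.9 and 20.4 in Vehicle mice 1 to 4, and at 55.8, 39.4, 32.4 and 40.5 in LJP mice 1 to 4. The 3 groups did not overlap, with LJP between the other 2 groups. From Sham to Vehicle its log2 fold change was -1.94 (SE 0.47, edgeR adjusted p = 0.00717).

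Drd2 (Entrez Gene 13489, chromosome 9 from 49340360 to 49408177) encodes the inhibitory dopamine receptor of indirect-pathway neurons. Its levels were 96.1, 119.8, 98.3 and 98.0 CPM in the Sham group, 21.2, 1.16, 30.5 and 23.7 in the Vehicle group, and 61.9, 43.6, 27.9 and 38.1 in the LJP group. Vehicle 2, at 27 counts, held 1.13% of the Sham mean, the smallest share of any member in any mouse. LJP 3 lay below Vehicle 3, so these 2 groups overlapped, while both stayed under the Sham range. The log2 fold change from Sham to Vehicle was -2.44 (SE 0.58, edgeR adjusted p = 0.00609).

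Adora2a (Entrez Gene 11540, chromosome 10 from 75316877 to 75334792) encodes the adenosine receptor that opposes D2 signalling in the same neurons. It was at 163, 180.0, 164 and 151 CPM in Sham mice, at 28.4, 7.09, 39.1 and 29.4 in Vehicle mice, and at 88.6, 65.1, 43.9 and 54.1 in LJP mice. No group overlapped with another. Of the 9 members it fell most, to -2.67 on the log2 scale (SE 0.38, edgeR adjusted p = 0.000442).

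Ppp1r1b (Entrez Gene 19049, chromosome 11 from 98348406 to 98357796), the DARPP-32 gene, had the smallest fall of the members with all mice. Its CPM were 919, 1083, 962 and 1011 in the Sham group, 617, 141, 448 and 334 in the Vehicle group and 642, 585, 397 and 525 in the LJP group. Vehicle 1 lay within the LJP range, above LJP 2, LJP 3 and LJP 4. The log2 fold change from Sham to Vehicle was -1.37 (SE 0.32, edgeR adjusted p = 0.0061). Without Vehicle 1 it was -1.69, and Pcp4 then had the smallest fall, at -1.67.

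Rgs9 (Entrez Gene 19739, chromosome 11 from 109225348 to 109298181) encodes a regulator that shortens G protein signals downstream of the dopamine receptors. It was at 226, 241, 202 and 197 CPM in Sham mice, 65.1, 17.3, 75.1 and 53.1 in Vehicle mice and 133, 115, 72.8 and 94.3 in LJP mice. Only LJP 3 and Vehicle 3 made the treated and untreated stroke groups overlap. Its log2 fold change from Sham to Vehicle was -2.04 (SE 0.34, edgeR adjusted p = 0.00102).

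Pde10a (Entrez Gene 23984, chromosome 17 from 8525187 to 8986648) encodes the phosphodiesterase that breaks down cyclic nucleotides in these neurons. Sham mice had 619, 675, 526 and 519 CPM, Vehicle mice 99.97, 37.3, 172 and 129, and LJP mice 342, 255, 176 and 208. The groups did not overlap, although LJP 3 was close to Vehicle 3. The log2 fold change from Sham to Vehicle was -2.42 (SE 0.36, edgeR adjusted p = 0.000555).

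Pcp4 (Entrez Gene 18546, chromosome 16 from 96467606 to 96525793) encodes a small protein that binds calmodulin and is also made outside the striatum. It was at 231, 212, 209 and 222 CPM in the Sham group, 62.8, 46.1, 80.0 and 79.9 in the Vehicle group, and 137, 95.5, 90.7 and 112 in the LJP group. The Vehicle mice lay closest together here, the highest at 1.74 times the lowest, where Drd2 had 26.3 times. With this small spread its fall of -1.70 on the log2 scale (SE 0.17) had the smallest adjusted p of the members (edgeR adjusted p = 8.96e-05).

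The neuropeptide genes had the least certain falls. Penk (Entrez Gene 18619, chromosome 4 from 4133536 to 4138815) was at 529, 555, 483 and 502 CPM in the Sham group, 271, 14.7, 215 and 138 in the Vehicle group and 399, 286, 203 and 289 in the LJP group. Tac1 (Entrez Gene 21333, chromosome 6 from 7555061 to 7562978) was at 71.7, 77.9, 64.2 and 64.3 CPM in the Sham group, 25.6, 1.68, 37.5 and 25.6 in the Vehicle group and 59.8, 52.9, 36.9 and 53.1 in the LJP group. In both genes LJP 3 fell within the Vehicle range, and LJP 1 of Tac1 came close to the lowest Sham mouse. The log2 fold change from Sham to Vehicle was -1.70 for Penk (SE 0.56, edgeR adjusted p = 0.0294) and -1.63 for Tac1 (SE 0.54, edgeR adjusted p = 0.0298).

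Without Vehicle 2, the fit called 9 of 9 members lower in Vehicle (15.6% of all genes), with log2 fold changes from -2.36 to -1.10 and edgeR adjusted p of at most 0.00085. Without Vehicle 1 it called 8 of 9 (14.3% of all genes), with Tac1 at an edgeR adjusted p of 0.0522. When only the Sham and Vehicle mice were fitted, 7 of 9 were called, where 11.6% of all genes were. Penk then had an edgeR adjusted p of 0.0714 and Tac1 of 0.0778. Both also lost the call when any single Sham mouse was left out, Tac1 when Vehicle 1 was left out and Penk when Vehicle 4 was left out. Counts of lncRNA genes overlapping Drd2, Ppp1r1b and Pde10a were at most 34, 84 and 16 per mouse. The strand setting of the counting is not given in the sources used here.

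**Figure D2:**
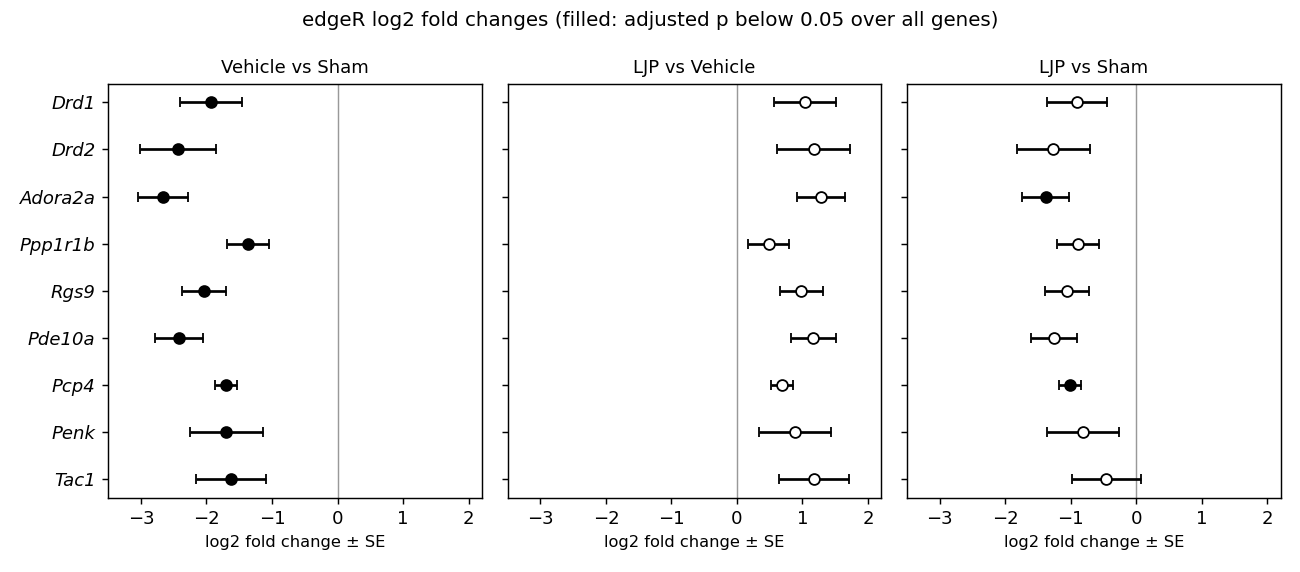
Log2 fold changes with standard errors of the 9 members in the 3 comparisons, filled where the edgeR adjusted p over all genes was below 0.05. All 9 are filled and negative for Vehicle vs Sham, none is filled for LJP vs Vehicle, and Adora2a and Pcp4 are filled for LJP vs Sham.

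Levels per kilobase of gene model order the members by abundance, and this order depends on the lengths of the models. These were 17018 bases for Pde10a and 8647 for Rgs9, but 1593 for Penk. Before division by length, Pde10a stood at 585 CPM in Sham mice, above Penk at 517. In Sham mice Ppp1r1b was highest at 470.0 ± 33.2 CPM per kb (SD, n = 4), followed by Pcp4 at 341 ± 15.9 and Penk at 325 ± 19.7. Far below came Adora2a at 55.7 ± 4.00, Tac1 at 52.4 ± 4.96, Drd2 at 36.6 ± 3.97, Pde10a at 34.4 ± 4.44, Rgs9 at 25.0 ± 2.37 and Drd1 at 21.9 ± 2.84. Neighbours such as Pcp4 and Penk, Adora2a and Tac1, or Drd2 and Pde10a lay within their spread. In the Vehicle group Ppp1r1b stayed highest at 182 ± 94.7 CPM per kb, while Tac1, at 17.0 ± 11.3, stood above Adora2a at 8.80 ± 4.57, a gap within the spread.

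The question of the LJP group was whether treated mice differed from Vehicle mice. All 9 members had higher means in LJP mice than in Vehicle mice, with log2 fold changes from 0.48 for Ppp1r1b (SE 0.32) to 1.28 for Adora2a (SE 0.37) and a median of 1.04, while the median of all genes was 0.00. By edgeR, 0 of 9 were called higher, as were 0% of all genes. Adjusted p-values ran from 0.0678 for Pcp4 to 0.312 for Ppp1r1b in edgeR, and 6 of 9 members were higher with an unadjusted p below 0.05, as were 12.3% of all genes. DESeq2 called 4 of 9 higher, where 3.88% of all genes were: Adora2a (adjusted p = 0.00947), Rgs9 (0.028), Pde10a (0.0116) and Pcp4 (0.00508). Every LJP mouse lay above every Vehicle mouse in 4 of 9 members, Drd1, Adora2a, Pde10a and Pcp4, against 5.77% of all genes.

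Markers of other neurons went in both directions in LJP against Vehicle, and none of them was called by edgeR. Positive log2 fold changes were found in 12 of 12 pan-neuronal genes (median 0.25), 9 of 10 cortical excitatory genes (median 0.28) and 7 of 9 interneuron genes (median 0.28). They were found in 2 of 6 thalamic genes (median -0.38), 3 of 5 midbrain dopamine genes (median 0.22) and 3 of 4 cerebellar genes (median 0.17). Without Vehicle 2 the medians of the pan-neuronal, cortical and interneuron genes were 0.12, 0.17 and 0.04, those of the thalamic, midbrain and cerebellar genes -0.25, 0.12 and 0.26, and that of the members was 0.69. With each library scaled to the pan-neuronal genes, the members' median was 0.84, from 0.24 for Ppp1r1b to 1.09 for Adora2a, and 0 of 9 were called. With that scaling and without Vehicle 2 it was 0.53, from 0.02 for Ppp1r1b to 0.82 for Adora2a, again with 0 of 9 called. On these 2 scales the median of all genes was -0.31 and -0.16. The part of the other neurons in the members' difference was not tested.

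Leaving out single mice changed this comparison. In the other 5 members LJP 3 fell within the Vehicle range, and for Ppp1r1b LJP 2 and LJP 4 did as well. LJP 3 was the lowest of its group in 9 of 9 members and LJP 1 the highest in 9 of 9. Averaged over the members, the log2 shift from the Sham mean was -0.61 in LJP 1, -0.98 in LJP 2, -1.46 in LJP 3 and -1.08 in LJP 4. The same shift was -1.69, -4.30, -1.48 and -1.90 in Vehicle mice 1 to 4, so LJP 3 and Vehicle 3 were nearly level. Without Vehicle 1 no member was called, with a median log2 fold change of 1.23. Without Vehicle 2 no member was called either, and the log2 fold changes shrank to between 0.20 and 0.96. Without Vehicle 3 the edgeR fit called 4 of 9, Adora2a, Rgs9, Pde10a and Pcp4, where 8.46% of all genes were called higher. Without Vehicle 4 it called Pcp4 alone, where 3.35% of all genes were.

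Against the Sham group, LJP mice had lower levels of all 9 members. LJP means were between 38.2% (Adora2a) and 72.9% (Tac1) of the Sham mean, and every LJP mouse lay below every Sham mouse in 9 of 9 members, against 12.0% of all genes. In the edgeR fit of all 12 mice, 2 of 9 were called lower, where 0.900% of all genes were. These were Adora2a, at -1.39 on the log2 scale (SE 0.36, edgeR adjusted p = 0.0484), and Pcp4, with -1.01 (SE 0.17, edgeR adjusted p = 0.00433). The other 7 ranged from -1.26 for Drd2 (edgeR adjusted p = 0.235) to -0.46 for Tac1 (edgeR adjusted p = 0.701).

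That count differed between fits. The fits differ in the mice that share a single estimate of the spread, and also in the genes that pass the filter. A fit of only the Sham and LJP mice called 9 of 9 members lower, with edgeR adjusted p from 3.08e-05 to 0.0105, where 11.8% of all genes were called. A fit without Vehicle 2 called 8 of 9, where 5.50% of all genes were, and left out Tac1 (edgeR adjusted p = 0.0552). A fit without Vehicle 1 called Pcp4 alone, where 1.19% of all genes were. Standard errors of the 9 members ran from 0.17 to 0.55 with all 12 mice, from 0.12 to 0.20 without Vehicle 2 and from 0.10 to 0.17 in the fit of the 2 groups. The log2 fold changes themselves hardly moved, with Tac1 at -0.46 in each of these fits, while its standard error was 0.52 with all 12 mice, 0.15 without Vehicle 2 and 0.11 in the fit of the 2 groups.

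Within a mouse, direct- and indirect-pathway genes were compared as ratios of counts, which do not depend on library scaling. The log2 ratio of Drd1 to Drd2 was -0.21, -0.41, -0.43 and -0.54 in Sham mice, 0.55, 1.23, -0.13 and -0.22 in Vehicle mice, and -0.15, -0.15, 0.21 and 0.09 in LJP mice. All 4 LJP mice thus lay above the Sham mice, while Vehicle 4 lay just within the Sham range. The means were -0.40 ± 0.14 (SD, n = 4) in Sham, 0.36 ± 0.67 in Vehicle and 0.00 ± 0.18 in LJP. The LJP to Sham difference of 0.40 gave p = 0.0286 in the two-sided exact permutation test, the smallest that 4 against 4 mice allow, and 0.0858 after adjustment over the 6 ratio tests. Vehicle against Sham differed by 0.76 (exact permutation p = 0.0571, adjusted 0.114), and LJP against Vehicle by -0.36 (exact permutation p = 0.371, adjusted 0.445). Without Vehicle 2 these last differences were 0.47 and -0.07, and without Vehicle 1 they were 0.69 and -0.29.

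For Tac1 to Penk, the mean log2 ratio was -2.90 ± 0.06 (SD, n = 4) in Sham, -2.86 ± 0.47 in Vehicle and -2.52 ± 0.15 in LJP. The Vehicle mice were split, with -3.40 and -3.11 in mice 1 and 2 and -2.52 and -2.42 in mice 3 and 4, on both sides of the Sham mice. The LJP mean exceeded the Sham mean by 0.38, and all 4 LJP mice lay above every Sham mouse (exact permutation p = 0.0286, adjusted 0.0858). Vehicle and Sham differed by 0.03 (exact permutation p = 0.943), and LJP and Vehicle by 0.34 (exact permutation p = 0.257). Without Vehicle 2 these last differences were 0.12 and 0.26, and without Vehicle 1 they were 0.21 and 0.17. The first turned to -0.08 without Vehicle 3 and to -0.11 without Vehicle 4. None of the 6 ratio tests passed an adjusted p of 0.05.

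**Figure D3:**
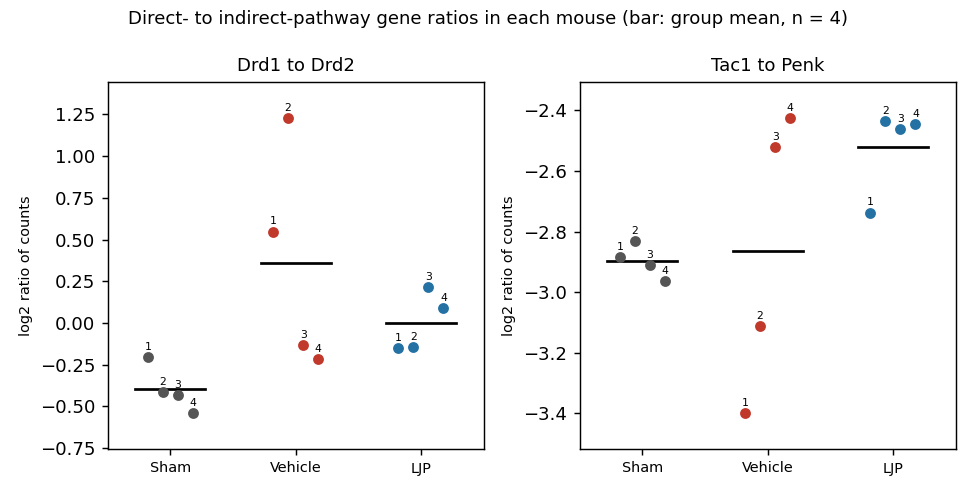
Log2 ratios of counts, Drd1 to Drd2 and Tac1 to Penk, in each numbered mouse with bars for the group means. The LJP mice lie above all Sham mice in both panels, and the Vehicle mice spread from -0.22 to 1.23 for Drd1 to Drd2.

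Further genes known from striatal neurons were grouped in 4 lists of 53 genes in all, none of them a member. These lists too were chosen with earlier results of these data known. In Vehicle against Sham, 47 of the 53 were called lower by edgeR and 1 higher, with a median log2 fold change of -1.26. Lower calls made up 17.3% of all genes. Without Vehicle 2, 48 were called lower (15.6% of all genes), with a median of -1.04, and without Vehicle 1, 48 (14.3%). In each of the 4 lists the count without Vehicle 2 or without Vehicle 1 was at most 1 away from that with all mice. Among receptors and G protein genes 17 of 19 were called lower, and all 19 had negative log2 fold changes, with a median of -1.27. Rasgrp2, an exchange factor for Rap proteins, was at -1.95 on the log2 scale (SE 0.24), Cnr1, the cannabinoid receptor, at -0.91 (SE 0.11) and Rgs7bp, which anchors Rgs9-type regulators at the membrane, at -1.26 (SE 0.21). All 12 genes of cyclic nucleotide, calcium and phosphatase signalling fell, with a median of -1.02. They included Dgkb, a diacylglycerol kinase, at -1.57 (SE 0.17), and the phosphodiesterases Pde1b at -1.56 (SE 0.20) and Pde7b at -1.70 (SE 0.26).

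Of the channels, peptides and other membrane proteins, 9 of 10 were called lower, where 17.3% of all genes were. All 10 had negative log2 fold changes, with a median of -1.34. The GABA-A receptor subunit Gabra4 was at -1.15 on the log2 scale (SE 0.12), the sodium channel subunit Scn4b at -2.07 (SE 0.29) and the potassium channel subunit Kcnab1 at -1.45 (SE 0.21). Pdyn, the dynorphin precursor of direct-pathway neurons, was the 1 gene of this list not called, at -0.64 on the log2 scale (edgeR adjusted p = 0.0772), and was named after its value was seen. Of 12 transcription factors, 9 were called lower, among them Foxp1 at -0.87 (SE 0.07) and Rarb at -1.63 (SE 0.20). In all, 10 of the 12 had negative log2 fold changes. Ikzf1, which is also a factor of blood-derived cells and microglia, rose by 1.74 (SE 0.25, edgeR adjusted p = 0.000432). Its CPM went from 5.13 ± 1.06 (SD, n = 4) in Sham to 17.2 ± 4.75 in Vehicle mice.

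The list of direct-pathway genes, which shares Drd1 and Tac1 with the members, had 4 of 8 genes called lower and a median of -0.97 in Vehicle against Sham. The list of indirect-pathway genes, which shares Drd2, Adora2a and Penk, had 7 of 7 called lower and a median of -2.24. Of all genes tested, 17.3% were called lower. The direct-pathway genes not called were Pdyn (-0.64), Isl1 (-0.69), Ebf1 (0.01) and Sfxn1 (0.06). Called beside Drd1 and Tac1 were Chrm4 (-1.25) and Slc35d3 (-1.42). These genes were named after their values were seen. Isl1 and Ebf1 were low, at 5.77 and 7.40 CPM in Sham mice. Without Vehicle 2 the counts of these lists were again 4 of 8 and 7 of 7 (15.6% of all genes), with medians of -0.74 and -1.94. Without Vehicle 1 they were also 4 of 8 and 7 of 7 (14.3%). The difference between these lists was not tested. In LJP against Vehicle, 51 of the 53 wider genes had positive log2 fold changes, with a median of 0.63. Without Vehicle 2 it was 48 of 53, with a median of 0.40. EdgeR called 0 of the 53 higher, also without Vehicle 2 or Vehicle 1, and DESeq2 called 17 (3.88% of all genes). EdgeR called 26 without Vehicle 3 (8.46% of all genes) and 15 without Vehicle 4 (3.35%). In LJP against Sham, edgeR called 12 of 53 lower (0.900% of all genes) and 1 higher, Ikzf1, with a median of -0.66. Without Vehicle 2, 41 were called lower (5.50% of all genes), and without Vehicle 1, 13 (1.19%). The count ran from 2, without Sham 1 (0.262% of all genes) or without LJP 3 (0.241%), to 45 in the fit of the 2 groups (11.8%).

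Markers of other cells were read beside these results. In Vehicle against Sham, 17.3% of all genes were called lower and 22.7% higher. The share called lower was 15.6% without Vehicle 2, 14.3% without Vehicle 1 and 20.6% without Vehicle 3. The summed CPM of the 9 members was 2781 to 3233 in Sham, 269 to 1222 in Vehicle and 1081 to 1919 in LJP mice. For 12 pan-neuronal genes the sums were 8025 to 8761, 4753 to 7343 and 7166 to 8369, and 6 of 12 were called lower in Vehicle against Sham, with a median log2 fold change of -0.34. Under the alternatives this count ran from 2, with scaling to these genes, to 9 without Vehicle 3. It was 6 without Vehicle 2, with a median of -0.22, and 4 without Vehicle 1, with a median of -0.34. For 10 cortical excitatory genes they were 1987 to 2363, 1903 to 2565 and 2325 to 2731, with 2 called lower and 1 higher. The count called lower ran from 0, in the fit of the 2 groups among others, to 5 without Vehicle 3, and was 1 without Vehicle 2 and 0 without Vehicle 1. For 9 interneuron genes they were 407 to 418, 185 to 420 and 360 to 409, with 0 of 9 called, also without Vehicle 2 or Vehicle 1, and 1 called lower without Vehicle 3 or Vehicle 4. In Vehicle 2 the members stood at 9.12% of the Sham mean, the wider striatal genes at 24.0%, the interneuron genes at 44.8%, the pan-neuronal genes at 56.8% and the cortical excitatory genes at 84.8%.

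When each library was scaled to the pan-neuronal genes instead, the median log2 fold change of all genes in Vehicle against Sham moved to 0.44. On that scale all 9 members were still called lower, with Adora2a at -2.34 on the log2 scale (SE 0.32), Penk at -1.37 (SE 0.51) and edgeR adjusted p up to 0.0396, where 3.87% of all genes were called lower. Without Vehicle 2 the same scaling called 9 of 9 lower (3.67% of all genes), from -2.07 for Adora2a to -0.78 for Ppp1r1b. The fall of each member was thus larger than that of the summed pan-neuronal genes.

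**Figure D4:**
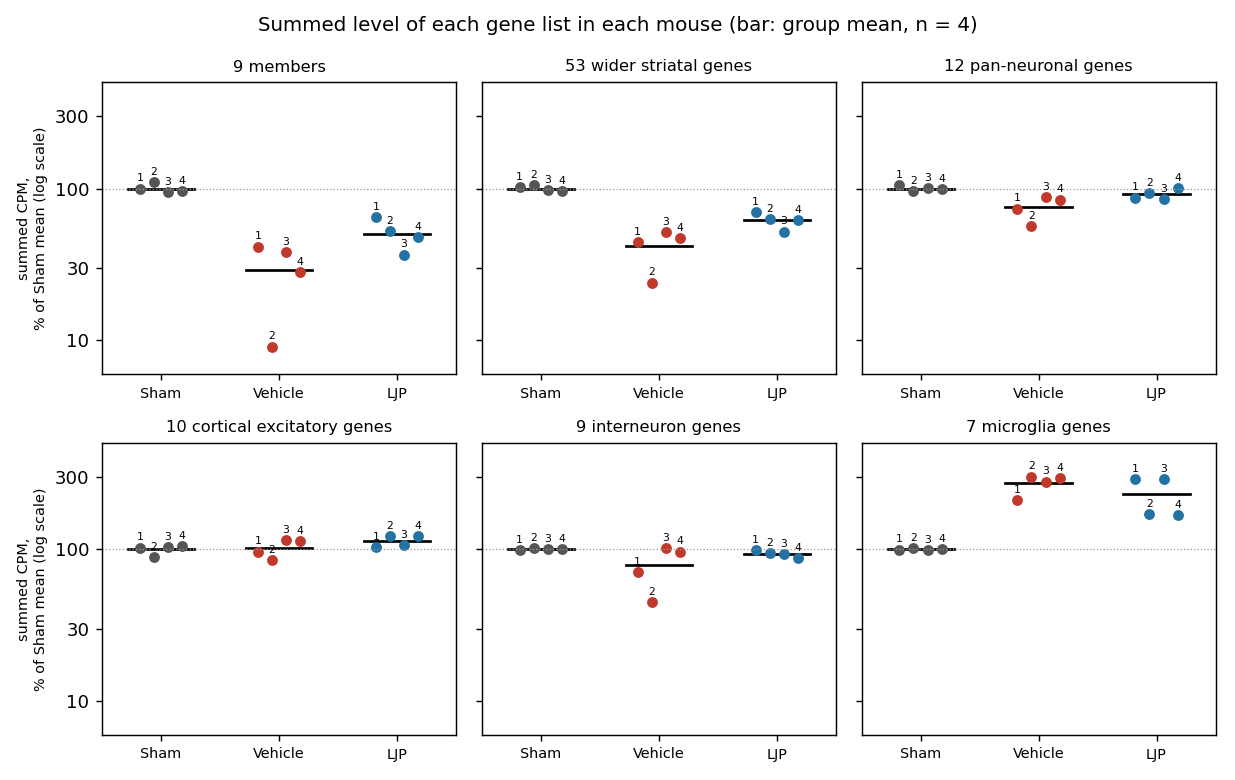
Summed CPM of 6 gene lists in each numbered mouse, as a percentage of the Sham mean on a log axis, with bars for the group means. Vehicle 2 stands at 9.12% for the members and 84.8% for the cortical excitatory genes, and the microglia genes are above 100% in all Vehicle and LJP mice.

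The summed CPM of 7 microglia and macrophage genes was 208 to 215 in Sham, 443 to 636 in Vehicle and 354 to 615 in LJP mice, and 6 of 7 were called higher in Vehicle against Sham, where 22.7% of all genes were. LJP 1 and LJP 3, the highest and the lowest LJP mice for the members, had microglia sums of 290.7% and 290.9% of the Sham mean, and LJP 2 and LJP 4, between them for the members, had 170.2% and 167.4%. Choroid plexus genes varied within every group, from 33.2 to 912.9 summed CPM in Sham, 24.8 to 536.6 in Vehicle and 22.6 to 390.0 in LJP mice, with 0 of 6 called. All 6 choroid plexus genes had negative log2 fold changes in LJP against Vehicle (median -0.97) and in LJP against Sham (median -1.86). In Vehicle against Sham 5 of 6 did (median -0.89). Without Vehicle 2 the median of LJP against Vehicle was -1.32. In the LJP group the highest sum was that of LJP 3 and the other 3 mice were at most at 27.3. The sums were 29.3 in Vehicle 2 and 24.8 in Vehicle 1. The astrocyte list, at 3653 to 4121, 3516 to 5510 and 4252 to 5537 summed CPM, had 1 of 7 genes called lower and 2 higher in Vehicle against Sham. The oligodendrocyte list, at 4468 to 5447, 5503 to 6046 and 4421 to 5441, had 1 of 6 called higher. Over all genes, 17.3% were called lower and 22.7% higher in Vehicle against Sham. Neurons of other regions were read as well. The thalamic list, at 59.2 to 95.2 summed CPM in Sham, 70.8 to 86.3 in Vehicle and 69.5 to 79.8 in LJP mice, had 1 of 6 genes called lower and 1 higher. The midbrain dopamine list, at 79.3 to 96.0, 46.2 to 91.3 and 88.1 to 93.3, had 0 of 5 called lower and 1 higher. The cerebellar list, at 120.2 to 134, 49.2 to 93.5 and 92.5 to 107, had 1 of 4 called lower, and no Vehicle or LJP mouse reached the Sham range. That gene was Calb1, named after its value was seen, a calcium-binding protein that medium spiny neurons also make. In Vehicle against Sham, the counts of the microglia, choroid plexus, astrocyte, oligodendrocyte, thalamic, midbrain and cerebellar lists were the same without Vehicle 2. They were also the same without Vehicle 1, except that 0 of 5 midbrain genes were then called higher. The part of these cell types and regions in the members' result was not tested. No marker of any list was at 0 in all mice, and Gabra6 of cerebellar and Slc6a3 of midbrain dopamine neurons had too few counts to be tested.

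The rest of the genome was searched for genes with a profile over the 12 mice like the members' mean profile, by the root mean square difference of centred log2 CPM. Among the nearest were Impg1 (0.22), Actn2 (0.22), Rxrg (0.26), Serpina9 (0.26), Ano2 (0.27), Gng7 (0.27) and Gpr52 (0.28), where the median over the 17549 non-member genes tested was 1.20. Of these, the retinoid receptor Rxrg, the G protein subunit Gng7 and the orphan receptor Gpr52 were on the wider striatal lists. The members themselves differed in how close they lay to their own mean. Drd1, at 0.19, and Rgs9, at 0.20, were nearest, while Drd2 at 0.54 and Pcp4 at 0.58 were farthest, with 73 and 100 non-member genes nearer than they were. Vehicle 2 separates these ends, since it stood at 1.13% of the Sham mean for Drd2 and at 21.1% for Pcp4.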

How the data were processed

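Poly(A) RNA of the ischemic hemisphere of 12 mice, 4 per group, was sequenced as read pairs. The authors deposited 1 table, which holds whole-number counts for every gene in every mouse, without normalization. The submitters' processing notes name featureCounts, DESeq2 and the builds GRCm39 and mm10. Positions of all 9 members equal those of RefSeq on GRCm38.p6, the assembly of mm10. The aligner, the strand setting and the handling of shared reads are not given in the sources used here, and shared reads could be lost or split.

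Groups came from the sample labels. The counts were fitted with edgeR 4.0.16 under R 4.3.3 (filterByExpr, TMM, quasi-likelihood test, 1 fit of all 12 mice), with Benjamini-Hochberg adjustment over 17558 genes and calls below 0.05. The p-values set the difference between group means against the spread between these mice. Log2 CPM used a prior count of 2. Ratios used counts plus 0.5 and exact permutation tests in scipy 1.17.1 under Python 3.11.15. Figures were drawn with matplotlib 3.10.9. The members and lists were chosen with earlier results of these data known. All members were named, with the 3 genes of smallest p in Vehicle vs Sham from each wider list and the 8 genes nearest in profile, of which 1 is not reported here. Other genes are said where named after their values were seen.

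Pairs of mice within a group differed by more than sampling noise (chi-square per degree of freedom from 2.56 to 122). Same-numbered mice did not deviate together (correlations from -0.32 to 0.11), so their numbers were not used as pairs. On simulated counts for 17345 genes in the Vehicle vs Sham comparison, the test recovered 61.9% of changes of 1 log2 unit. It recovered 90% of changes of 2 log2 units, and 4 of 154 calls were false. The simulation changed 97 genes by 1 log2 unit and 100 by 2, and gave each gene the same spread in every mouse. It lacked the larger spread among Vehicle mice and the many changes of the data, where 7014 genes were called. These rates therefore cannot be carried over to the data. Alternatives were DESeq2 1.42.0, RLE, library size only, scaling to 12 pan-neuronal genes, no filter, 2 groups only, a replicate block, the study's thresholds (absolute log2 fold change over 0.58, unadjusted p below 0.01) and leaving out each mouse. The counts of list genes under these alternatives, pan-neuronal scaling without Vehicle 2, and the list medians without Vehicle 1 or 2, were added after seeing the data.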

Additional observations from a re-analysis of the deposited data

Results flagged for a closer look

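Drd2 in the Sham group was singled out because 1 mouse lay far from the other 3. Sham 2 stood at 119.8 CPM and the others between 96.1 and 98.3, a gap of 0.908 of the group's range, which is above Dixon's critical value for 4 samples. This was 1 of 27 groups of 4 values examined, 1 for each member in each group, and chance gives about 1.35 such groups. Sham 2 was the highest Sham mouse in 8 of 9 members.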

How the results depend on the processing

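Of the ratios and of the members' fold changes and medians, the Tac1 to Penk ratio in Vehicle vs Sham alone changed direction, from 0.03 to -0.08 without Vehicle 3 and -0.11 without Vehicle 4, in a range of -0.11 to 0.21 when single mice were left out. The other 52 of 54 alternative values of the ratios kept their direction. Among the lists rerun without Vehicle 1 or Vehicle 2, the LJP vs Vehicle median turned without Vehicle 1 from 0.17 to -0.02 for the cerebellar and from 0.07 to -0.03 for the astrocyte genes. In LJP vs Vehicle, 0 members were called with all mice by edgeR, 4 by DESeq2, 1 without the filter on low counts (0.166% of all genes were called higher), 3 at the study's thresholds (1.07%), and 0 to 4 when single mice were left out. In LJP vs Sham, 2 members were called with all mice, 4 by DESeq2 (1.98% of all genes were called lower), 1 with library size only (0.598%), 1 when scaled to pan-neuronal genes (0.251%), 7 with that scaling and without Vehicle 2 (1.24%), 9 in the fit of the 2 groups (11.8%), 4 at the study's thresholds (0.797%), and 1 to 8 when single mice were left out (8 without Vehicle 2). The fit with the replicate block called 1 member there (0.336%), and same-numbered mice did not deviate together. Why these counts moved was not tested. Over all genes and both directions, LJP vs Vehicle had 4 calls with all mice, 2313 by DESeq2, 593 without the filter, 1223 at the study's thresholds, 2 in the fit of the 2 groups, 2 with the replicate block, 3857 without Vehicle 3 and 2095 without Vehicle 4. LJP vs Sham had 834, and 4043 in the fit of the 2 groups, 1458 by DESeq2, 446 when scaled to pan-neuronal genes, 464 with the replicate block and 2357 without Vehicle 2. Vehicle vs Sham had 7014, of which 3032 were lower, and 3807 at the study's thresholds. With pan-neuronal scaling 679 of 9077 were lower, and with library size only 2299 of 7036. Pan-neuronal scaling moved the median log2 fold change of all genes to 0.44 in Vehicle vs Sham, -0.31 in LJP vs Vehicle and 0.14 in LJP vs Sham. The smallest count behind a member was 27, for Drd2 in Vehicle 2, so small folds of that gene in that mouse are limited by depth.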
